A study of Homo sapiens with 18 samples.

Results

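The 10 genes described here encode the core of polyamine metabolism, and they were taken from the count table by their symbols, 10 of the 28277 genes listed. All 10 had enough counts to be tested. The data are RNA-seq of cells labelled OVCAR3, an ovarian cancer cell line, made to express dCas9-KRAB, a dead Cas9 fused to a repressor domain that silences the promoter its guide points to (OVCAR3-KRAB). The clonal cells carried a control guide directed at the promoter of Gal4, a yeast gene (sgCtl, sgControl in the labels), or sgXIST7 or sgXIST9, 2 guides against the promoter of XIST, the RNA that coats the inactive X chromosome. Each was kept in normoxia or for 24 h in a chamber at 1% oxygen (hypoxia), with 3 replicates in each of the 6 groups and 18 libraries in all. All groups, sgCtl included, carry dCas9-KRAB and a guide, and each guide is in its own clonal cells, so guide and clone cannot be told apart. The comparisons ask what changes where XIST is repressed, what changes in hypoxia, and whether the hypoxia response differs with the guide.

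Polyamines are small, positively charged molecules that bind nucleic acids and are needed for growth. Ornithine is turned into putrescine, putrescine into spermidine and spermidine into spermine, and the last steps draw aminopropyl groups from decarboxylated S-adenosylmethionine. The pathway is held in check by antizyme, whose own synthesis rises with polyamines, and it is run backwards by acetylation and oxidation. Tumour cells often have high polyamine synthesis.

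The genes fall into 3 roles. In synthesis stand ODC1, ornithine decarboxylase (chr2:10439968-10448327, minus strand, hg38 as in the count table), AMD1, S-adenosylmethionine decarboxylase (chr6:110814621-110895712, plus), SRM, spermidine synthase (chr1:11054590-11060018, minus), and SMS, spermine synthase (chrX:21940573-21994837, plus). In control stand OAZ1, antizyme 1, which binds ODC1 and sends it to the proteasome (chr19:2269486-2273488, plus), and AZIN1, the antizyme inhibitor that frees ODC1 (chr8:102826302-102864200, minus). In breakdown stand SAT1, the spermidine and spermine acetyltransferase that limits catabolism (chrX:23783158-23786223, plus), its paralog SAT2 (chr17:7626234-7627876, minus), SMOX, spermine oxidase (chr20:4148779-4187747, plus), and PAOX, the oxidase of acetylated polyamines (chr10:133379262-133391694, plus). SAT1 and SMS lie on the X chromosome. No listed exon of these 10 genes overlapped an exon of another listed gene on either strand.

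Libraries held 11794375 to 24906936 counts. XIST had 1589 to 11209 counts in the 6 sgCtl libraries, 0 to 5 in the 6 of sgXIST7 and 357 to 1009 in the 6 of sgXIST9. Of 10 hypoxia genes fixed as a check, 8 rose in hypoxia in sgCtl, 9 in sgXIST7 and 9 in sgXIST9, where 11.3%, 15.1% and 14.7% of all genes tested rose. Of 8 markers of serous ovarian carcinoma, EPCAM, KRT8, KRT18 and PAX8 stood above 3 counts in every group, whereas KRT7 had 0 to 3 counts, MUC16 0 to 4, WT1 0 to 14 and CLDN3 0 in all 18 libraries, which allows up to 3 counts in each; these 4 markers sit against the label, which was kept and not tested further. Of 5 markers of immune and endothelial cells, CD68 had 202 to 1051 counts and PTPRC, CD3E, PECAM1 and VWF had 0 to 13. The hypoxia libraries of replicate 3 stood apart, though less so in sgXIST7. Their log2 values correlated with the other libraries of their group at 0.953 to 0.984 across genes, against 0.987 to 0.988 for replicates 1 and 2. In sgXIST7 in hypoxia replicates 2 and 3 gave 0.984 and replicates 1 and 3 gave 0.975. Replicates 1 and 2 of sgXIST7 in normoxia also gave 0.984. The main hypoxia results are also given without all 3 of these libraries, a choice made from these data.

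Levels between genes are compared per exon length, as RPKM (reads scaled by exon length and library size), from counts scaled by TMM. In sgCtl in normoxia OAZ1 stood highest, at 308 RPKM ± 26.5 (SD, n = 3), above ODC1 at 105 ± 9.68. SMS at 58.3, AMD1 at 55.2, AZIN1 at 47.9 and SRM at 38.5 RPKM followed, and of these each overlapped its neighbour in the order. Of the 50-base windows in their exons, 58.8% for SMS and 87.2% for AMD1 occurred once in the hg38 chromosomes. Their places in the order depend on how reads with several matches were counted, which is not given. The breakdown enzymes came last, with SAT2 at 9.33, SAT1 at 3.41, PAOX at 1.37 and SMOX at 1.26 RPKM, the last pair overlapping. In sgXIST7 in hypoxia the order was another one. There SMS, at 180 RPKM ± 32.5, stood second after OAZ1 at 312 ± 36.8, and ODC1, at 40.3 ± 2.96, stood below AZIN1 at 56.6 RPKM. In sgXIST9 in hypoxia SMS also stood second, at 93.3 RPKM ± 33.0, after OAZ1 at 302 ± 12.8. In that group ODC1, at 51.7 ± 6.61, overlapped AZIN1 at 55.4 RPKM.

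**Figure D1:**
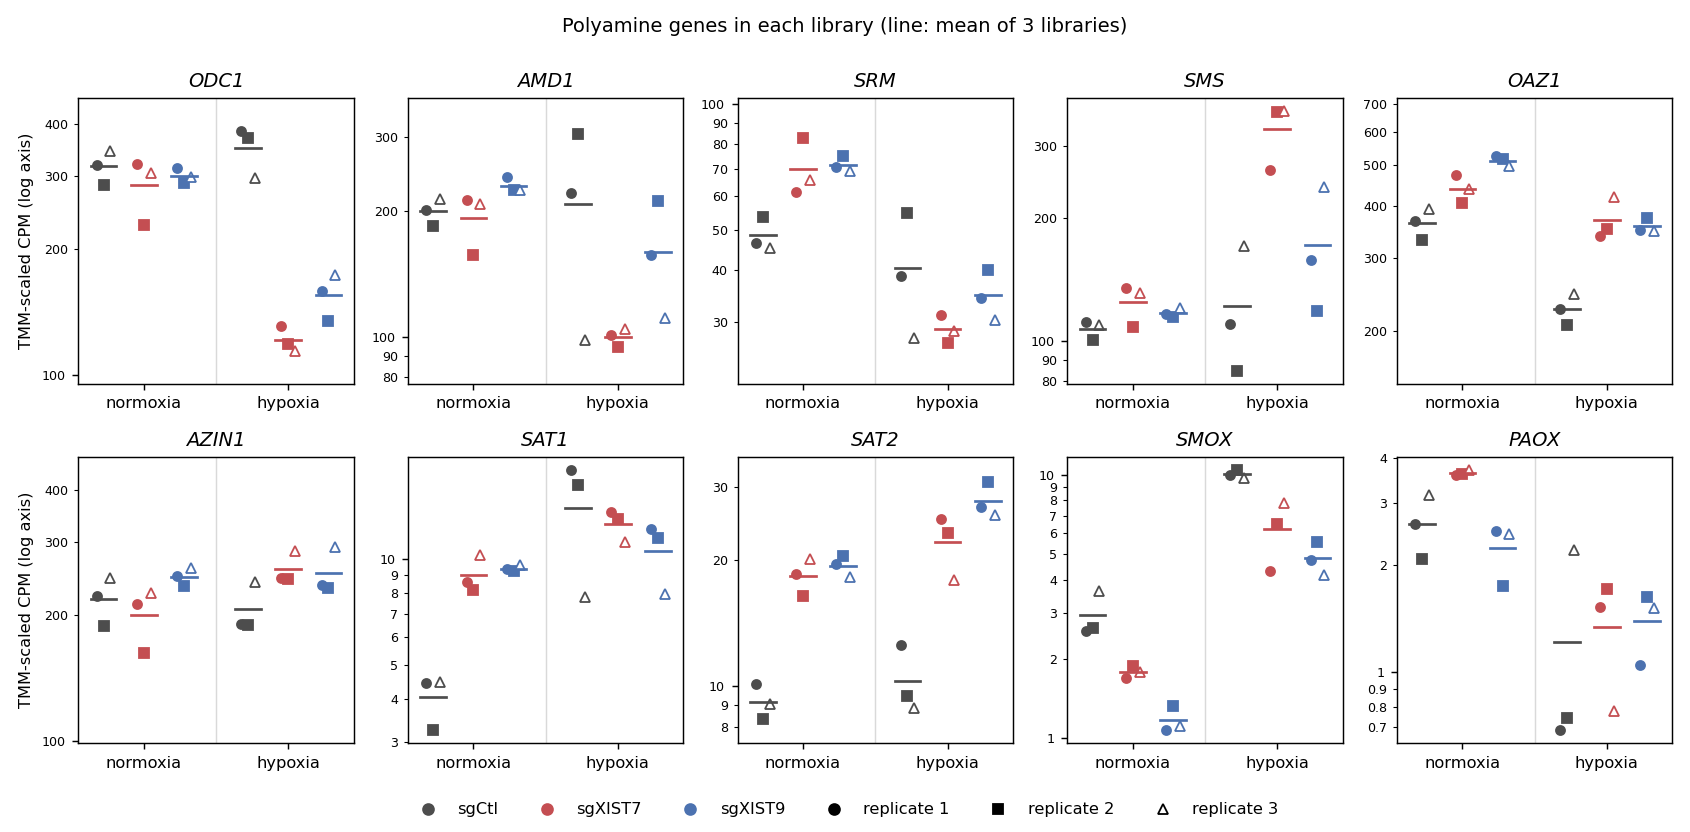
Each panel plots 1 gene in all 18 libraries as TMM-scaled counts (CPM) on a log axis, with normoxia on the left and hypoxia on the right, sgCtl in grey, sgXIST7 in red and sgXIST9 in blue, replicates by symbol and the mean of 3 libraries as a line. ODC1 is low only in the hypoxia libraries of the sgXIST7 and sgXIST9 cells (114 to 174), and SAT1 is low only in the sgCtl libraries in normoxia (3.25 to 4.48).

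A gene is said to have risen, fallen or passed where edgeR's quasi-likelihood test, fitted to all 14938 genes tested in all 18 libraries, put its adjusted p below 0.01 and its log2 fold change beyond 1 or -1. The 10 genes were chosen by their place in the pathway with the fold changes of these same comparisons known, so the calls describe them and are no independent evidence. In normoxia, 2 of the 10 passed in sgXIST7 against sgCtl, where 7.76% of all genes did, and 3 of the 10 in sgXIST9 against sgCtl, where 7.7% did. In hypoxia, 4 of the 10 passed in sgXIST7 against sgCtl, where 14% of all genes did, and 3 in sgXIST9 against sgCtl, where 9.53% did. Both knockdown comparisons at each oxygen level share the sgCtl libraries. Groups whose libraries do not overlap were common over all genes tested. Against sgCtl in normoxia this held for 45.5% of all genes in sgXIST7 and 53.9% in sgXIST9, and in hypoxia for 40.5% and 33.7%. Between oxygen levels it held for 54.9% in sgCtl, 63.9% in sgXIST7 and 65.9% in sgXIST9. Hypoxia itself moved 2 of the 10 in sgCtl, 5 in sgXIST7 and 2 in sgXIST9, where 19.7%, 27.3% and 23.3% of all genes passed, so these shares lie near or below the background in sgCtl and sgXIST9. The difference in hypoxia response passed for 1 of the 10 in sgXIST7 minus sgCtl and for 1 in sgXIST9 minus sgCtl, where 1.52% and 1.01% of all genes did. The median log2 fold change of the 10 lay between -0.25 and 0.25 in these 9 comparisons, as genes rose and fell side by side, against -0.02 to 0.09 over all genes.

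**Figure D2:**
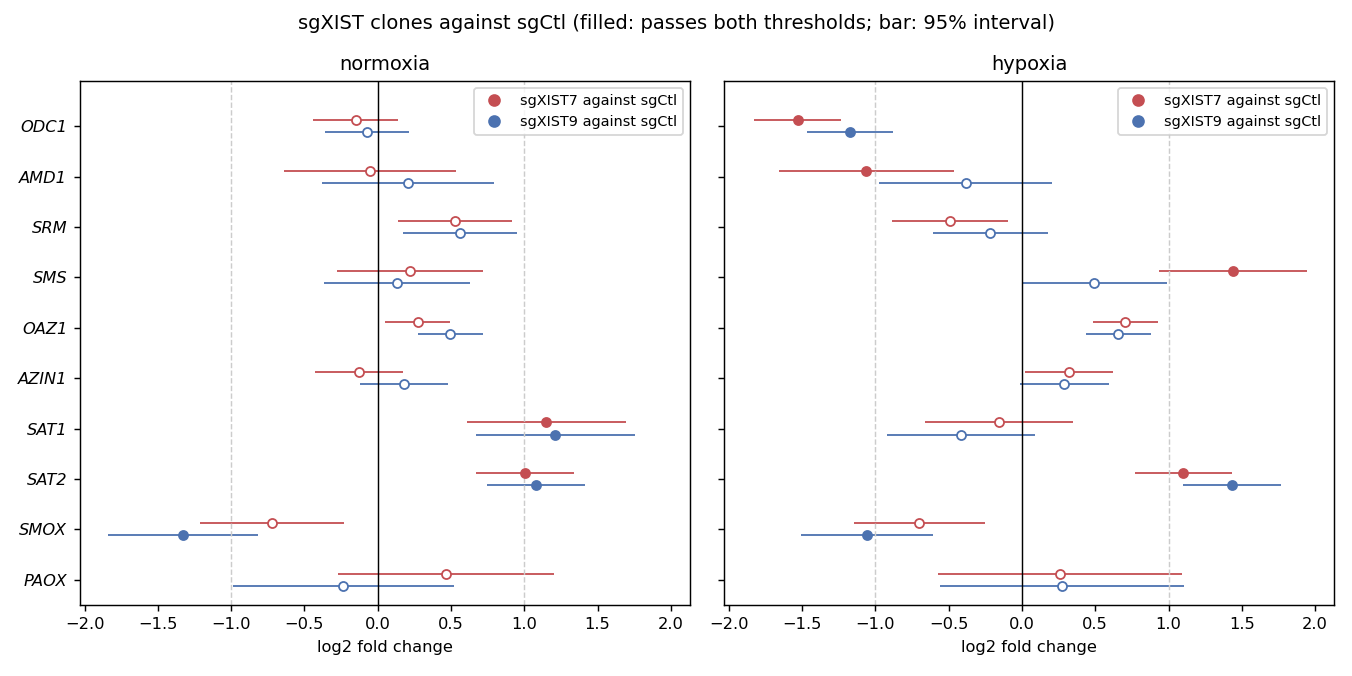
Each point is the log2 fold change of 1 gene in sgXIST7 (red) or sgXIST9 (blue) against sgCtl, in normoxia on the left and hypoxia on the right, with its 95% interval; filled points pass both thresholds and dashed lines mark log2 fold changes of 1 and -1. SAT1 passes in normoxia alone (1.15 and 1.21) and ODC1 in hypoxia alone (-1.53 and -1.17), while SAT2 passes in all 4 comparisons.

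ODC1, the first and most tightly controlled enzyme of the pathway, was lower in the XIST-repressed cells than in the control cells in hypoxia, and fell from normoxia to hypoxia in sgXIST7. In normoxia it stood at 319, 286 and 344 CPM (counts scaled to library size) in sgCtl, 320.4, 229 and 305 in sgXIST7, and 313, 289 and 299 in sgXIST9. In hypoxia it stood at 385, 370.0 and 297 CPM in sgCtl, 131, 118 and 114 in sgXIST7, and 159, 134 and 174 in sgXIST9. The groups overlapped in normoxia, whereas in hypoxia every sgXIST7 and sgXIST9 library lay below every sgCtl library. In bulk RNA, fewer cells with the transcript and less of it per cell cannot be told apart. In hypoxia ODC1 was 2.89-fold lower in sgXIST7 than in sgCtl (log2 fold change -1.53 ± 0.14 (SE), edgeR adjusted p = 3.25e-07) and 2.25-fold lower in sgXIST9 (-1.17 ± 0.14, adjusted p = 6.86e-06); without the hypoxia libraries of replicate 3 these were -1.59 and -1.37, and both passed. The log2 response to hypoxia was 0.15 ± 0.14 in sgCtl (adjusted p = 0.377), -1.23 ± 0.14 in sgXIST7 (adjusted p = 1.03e-06) and -0.95 ± 0.14 in sgXIST9 (adjusted p = 2.12e-05, short of the fold limit); without the hypoxia libraries of replicate 3 the sgXIST7 and sgXIST9 responses were -1.18 and -1.03, and passed. The test of the difference itself passed for sgXIST7 (-1.38 ± 0.19, adjusted p = 0.000687) and for sgXIST9 (-1.10 ± 0.19, adjusted p = 0.00444). Without the hypoxia libraries of replicate 3 these differences were -1.44 and -1.29, and both passed. The sgXIST9 difference did not pass when any 1 of 9 single libraries was left out (replicate 1 or 2 of sgCtl in normoxia or hypoxia, any sgXIST9 library in normoxia, or replicate 1 or 2 of sgXIST9 in hypoxia), with values from -1.202 to -1.003 over all single omissions.

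From normoxia to hypoxia ODC1, SRM and PAOX fell in sgXIST7. AMD1 gave -0.95 there (edgeR adjusted p = 0.0081), short of the fold limit. The letters CACGTG, the E-box that MYC and related factors can bind, were searched for in promoter windows of 7 genes. The 11 windows are RefSeq's (GRCh38.p14, 250 bases before to 50 after a start). Of the 7 genes searched, ODC1 and SRM were those with the E-box. AZIN1, SMOX and PAOX were not among the genes searched, so whether their promoters hold it was not tested. The motif, which reads the same on both strands, is held by 7.26% of all 35116 windows of that length. Such shares are per window, whereas a gene is counted here if any of its windows holds a match, so they are not directly comparable. The stretches outside listed exons are shown because they hold this motif, in the direction of transcription, with the E-box in capitals. For SRM these are the bases before the start (chr1:11060019-11060268, minus strand). For ODC1 these are the bases between listed exons (chr2:10448013-10448120, minus strand) that lead up to a second start. The ODC1 E-box begins 29 bases before that start.
SRM: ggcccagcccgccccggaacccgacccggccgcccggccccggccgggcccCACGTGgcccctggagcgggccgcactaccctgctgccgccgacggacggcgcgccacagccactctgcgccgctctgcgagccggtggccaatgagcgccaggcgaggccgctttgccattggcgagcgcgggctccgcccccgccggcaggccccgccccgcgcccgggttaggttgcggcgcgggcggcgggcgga
ODC1: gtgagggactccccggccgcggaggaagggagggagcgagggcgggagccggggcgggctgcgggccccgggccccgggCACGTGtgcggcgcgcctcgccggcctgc
The same ODC1 window held 1 more E-box, inside a listed exon. Over the 18 libraries the log2 CPM of ODC1 and SRM had a Pearson r of 0.61. AMD1 had 0.72 with ODC1 and 0.75 with SRM. It held 0 E-boxes in its 3 windows, which begin at chr6 positions 110874535, 110814367 and 110874534. These values describe libraries that share clone, oxygen level and depth. Whether the E-box bears on the levels was not tested. The core of the hypoxia response element, ACGTG or GCGTG on either strand, was found in windows of 5 of the 7 genes (ODC1, SRM, AMD1, OAZ1 and SMS) and in 48.4% of all windows; in SRM and in the second ODC1 window each such match lay within an E-box. These matches describe letters in a window and are not measurements of binding.

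SRM, which makes spermidine, stood at 46.5, 53.7 and 45.2 CPM in sgCtl in normoxia, 61.4, 82.6 and 65.5 in sgXIST7, and 70.4, 75.2 and 68.9 in sgXIST9. Its hypoxia levels were 38.8, 54.8 and 27.5 CPM in sgCtl, 31.2, 26.8 and 28.6 in sgXIST7, and 34.3, 40.1 and 30.3 in sgXIST9. In normoxia every sgXIST7 and sgXIST9 library lay above every sgCtl library, without passing (log2 fold changes 0.53 and 0.56, edgeR adjusted p = 0.0499 and 0.0370). From normoxia to hypoxia SRM fell by 1.27 ± 0.19 on the log2 scale in sgXIST7 (adjusted p = 1.95e-05) and by 1.03 ± 0.19 in sgXIST9 (adjusted p = 0.000175), against -0.25 ± 0.19 in sgCtl (adjusted p = 0.267). The difference in response did not pass for either guide by edgeR (-1.02 ± 0.26 and -0.78 ± 0.26, adjusted p = 0.0255 and 0.0911). By DESeq2, the test the study used, the sgXIST7 difference passed (-1.02, adjusted p = 0.00444) and the sgXIST9 difference did not (-0.83, adjusted p = 0.0304). On leaving out the hypoxia libraries of replicate 3, the sgXIST7 response was -1.25 and its difference -1.21, both of which passed, and the sgXIST9 response was -0.93 and missed the fold limit, as it did without replicate 2 of sgXIST9 in normoxia or replicate 3 in hypoxia.

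SMS, which turns spermidine into spermine, moved the other way and chiefly in sgXIST7. Its levels in normoxia ran from 101 to 135 CPM over the 9 libraries, with the groups side by side. Levels in hypoxia were 110.4, 84.6 and 171 CPM in sgCtl, 262, 364 and 366 in sgXIST7, and 158, 119 and 238 in sgXIST9, so that every sgXIST7 library lay above every other one. SMS was 2.71-fold higher in sgXIST7 than in sgCtl in hypoxia (log2 fold change 1.44 ± 0.24, edgeR adjusted p = 0.00016) and rose 2.65-fold from normoxia to hypoxia in sgXIST7 (1.41 ± 0.24, adjusted p = 7.98e-05). In sgXIST9 the same comparisons gave 0.49 ± 0.23 and 0.55 ± 0.23 (adjusted p = 0.126 and 0.0568). Without the hypoxia libraries of replicate 3 the sgXIST7 values were 1.69 and 1.34, both past the thresholds, and the sgXIST9 values 0.51 and 0.25. The difference in response, sgXIST7 minus sgCtl, was 1.22 ± 0.33 (adjusted p = 0.0316), and 1.27 (adjusted p = 0.00802) with the replicate number as a block. By DESeq2 with all libraries this difference was 1.22 and passed (adjusted p = 0.00782). Replicate 3 had the highest SMS level in sgCtl and in sgXIST9 in hypoxia, and without the hypoxia libraries of replicate 3 the difference in response was 1.47 and passed. Of the 1300 windows of 50 bases in SMS exons, 58.8% occurred once in the hg38 chromosomes; how reads with several matches were counted is not given in the sources used here.

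AMD1, which supplies the aminopropyl donor for both synthases, stood at 184 to 214 CPM in sgCtl, 157 to 213 in sgXIST7 and 224 to 242 in sgXIST9 in normoxia. In hypoxia it stood at 220.3, 305 and 98.3 CPM in sgCtl, 101, 94.5 and 104 in sgXIST7, and 157, 211 and 111 in sgXIST9. The third sgCtl library lay at the level of the sgXIST7 libraries, far below the other 2. In hypoxia AMD1 was 2.09-fold lower in sgXIST7 than in sgCtl (log2 fold change -1.06 ± 0.28, edgeR adjusted p = 0.00644), although the groups overlapped, and this call was lost on leaving out replicate 1 or 2 of sgCtl or any 1 sgXIST7 library in hypoxia (-1.40 to -0.68 over all single omissions). Without the hypoxia libraries of replicate 3 it was -1.42 and passed, and the difference in response for sgXIST7 went from -1.01 ± 0.40 (adjusted p = 0.113) to -1.37 and passed. In sgXIST9 against sgCtl in hypoxia AMD1 gave -0.38 ± 0.28 (adjusted p = 0.324). From normoxia to hypoxia AMD1 gave 0.06 in sgCtl, -0.95 in sgXIST7 and -0.53 in sgXIST9 (adjusted p = 0.874, 0.0081 and 0.118). The sgXIST7 response was short of the fold limit, and passed on leaving out replicate 2 of sgXIST7 in normoxia. Without the hypoxia libraries of replicate 3 these responses were 0.40, -0.97 and -0.32, none past both thresholds. Of its 3134 windows of 50 bases, 87.2% occurred once in the genome; the share was 97% for AZIN1, 99.9% for ODC1 and 100% for the remaining genes but SMS.

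The ratio of SMS to SRM per exon length sets the last step of synthesis beside the one before it, as a description. Its absolute size depends on how reads with several matches to SMS were counted. It was 1.29 to 1.66 in the sgCtl libraries in normoxia, 0.896 to 1.503 in sgXIST7 and 1.05 to 1.20 in sgXIST9. In hypoxia it was 5.74 to 9.31 in sgXIST7, 2.03 to 5.37 in sgXIST9 and 1.06 to 4.26 in sgCtl, so that the sgXIST7 libraries lay above all others and the sgXIST9 and sgCtl ranges overlapped. The highest ratio in sgCtl and in sgXIST9 was that of replicate 3; without it the sgCtl ratios in hypoxia were 1.06 and 1.95 and those of sgXIST9 3.16 and 2.03, which do not overlap.

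**Figure D3:**
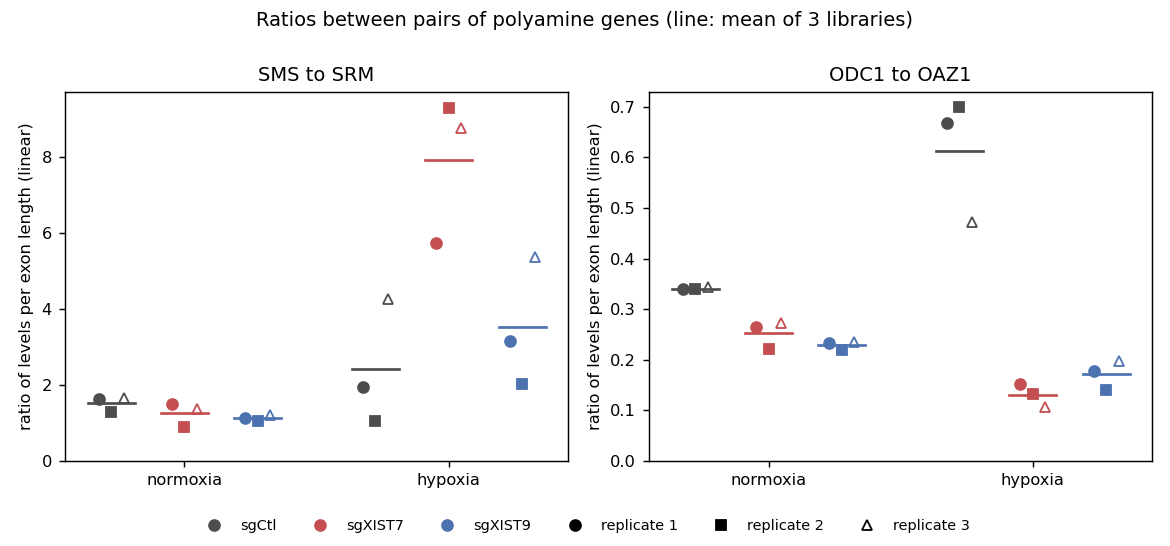
Each point is the ratio of 2 genes' levels per exon length in 1 library, on a linear axis from 0, for SMS to SRM on the left and ODC1 to OAZ1 on the right, with groups, replicates and means marked as in the plot of levels. SMS to SRM is 5.74 to 9.31 in sgXIST7 in hypoxia, and ODC1 to OAZ1 is 0.473 to 0.700 in sgCtl in hypoxia against 0.107 to 0.196 in the hypoxia libraries of sgXIST7 and sgXIST9.

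OAZ1, the antizyme that removes ODC1 protein, was the most abundant transcript of the 10 per length and moved by less than 2-fold throughout. It stood at 368, 331 and 393 CPM in sgCtl in normoxia, 474, 405 and 438 in sgXIST7, and 525, 516 and 497 in sgXIST9. Its hypoxia levels were 226, 207 and 246 CPM in sgCtl, 337, 351 and 419 in sgXIST7, and 349, 374 and 347 in sgXIST9. At both oxygen levels every sgXIST7 and sgXIST9 library lay above every sgCtl library. With an adjusted p under 0.01 but a log2 fold change under 1, OAZ1 was 1.63-fold higher in sgXIST7 (0.70 ± 0.11, edgeR adjusted p = 6.19e-05) and 1.58-fold higher in sgXIST9 (0.66 ± 0.11, adjusted p = 0.000154) than in sgCtl in hypoxia, and 1.41-fold higher in sgXIST9 in normoxia (0.49 ± 0.10, adjusted p = 0.00221). In sgXIST7 in normoxia it gave 0.27 ± 0.10 (adjusted p = 0.0762). From normoxia to hypoxia it was 1.61-fold lower in sgCtl (-0.68 ± 0.11, adjusted p = 4.72e-05) and 1.44-fold lower in sgXIST9 (-0.52 ± 0.10, adjusted p = 0.000458), and it gave -0.25 ± 0.10 in sgXIST7 (adjusted p = 0.0478). Without the hypoxia libraries of replicate 3 these responses were -0.74, -0.50 and -0.34, and the hypoxia values against sgCtl were 0.67 in sgXIST7 and 0.74 in sgXIST9; none reached the fold limit.

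AZIN1, which binds antizyme in place of ODC1, passed in no comparison on either count, and its log2 fold changes lay between -0.30 and 0.37 apart from a difference in response of 0.45 ± 0.20 in sgXIST7 (edgeR adjusted p = 0.167). Its levels ran from 162 to 259 CPM in normoxia and from 189 to 291 in hypoxia, with the highest value of each hypoxia group in replicate 3. The ratio of ODC1 to OAZ1 per length, the decarboxylase beside its inhibitor, was 0.339 to 0.343 in sgCtl in normoxia and 0.473 to 0.700 in sgCtl in hypoxia. In sgXIST7 it was 0.221 to 0.273 in normoxia and 0.107 to 0.153 in hypoxia, and in sgXIST9 0.220 to 0.235 and 0.141 to 0.196. In sgCtl every hypoxia library lay above every normoxia library, whereas in sgXIST7 and sgXIST9 every hypoxia library lay below. The lowest ratio of sgCtl in hypoxia, 0.473, was that of replicate 3, and the other 2 libraries had 0.667 and 0.700.

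SAT1, whose acetylation of spermidine and spermine starts their breakdown and export, stood at 4.43, 3.25 and 4.48 CPM in sgCtl in normoxia, from 66, 42 and 78 counts. It stood at 8.64, 8.16 and 10.3 CPM in sgXIST7 and 9.37, 9.24 and 9.63 in sgXIST9. Levels in hypoxia were 17.99, 16.3 and 7.79 CPM in sgCtl, 13.7, 13.04 and 11.2 in sgXIST7, and 12.2, 11.5 and 7.95 in sgXIST9. The normoxia groups did not overlap with sgCtl, and the hypoxia groups did, with replicate 3 the lowest of each. In normoxia SAT1 was 2.22-fold higher in sgXIST7 (log2 fold change 1.15 ± 0.26, edgeR adjusted p = 0.00319) and 2.31-fold higher in sgXIST9 (1.21 ± 0.26, adjusted p = 0.00226) than in sgCtl. In hypoxia the same comparisons gave -0.16 ± 0.24 and -0.42 ± 0.24 (adjusted p = 0.623 and 0.21). Hypoxia raised SAT1 3.47-fold in sgCtl (1.80 ± 0.26, adjusted p = 2.35e-05), and the response was 0.49 ± 0.24 in sgXIST7 and 0.17 ± 0.24 in sgXIST9 (adjusted p = 0.0924 and 0.576). The test of the difference did not pass by edgeR with all libraries, at -1.31 ± 0.35 for sgXIST7 (adjusted p = 0.0301) and -1.63 ± 0.35 for sgXIST9 (adjusted p = 0.0134). By DESeq2 with all libraries it passed for both, at -1.31 and -1.68 (adjusted p = 0.00496 and 0.000202). By edgeR it passed for both without the hypoxia libraries of replicate 3, at -1.50 and -1.73. Without them the rise in sgCtl was 2.08, and passed. The sgXIST7 call in normoxia was lost on leaving out any 1 sgCtl library or replicate 3 of sgXIST7 in normoxia (1.02 to 1.23), and the sgXIST9 call on leaving out replicate 2 of sgCtl (1.08 to 1.29).

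SAT2, a paralog of SAT1 whose preferred substrates are less clear, was higher in the XIST-repressed cells at both oxygen levels. It stood at 10.1, 8.35 and 9.07 CPM in sgCtl in normoxia, 18.5, 16.5 and 20.2 in sgXIST7, and 19.6, 20.5 and 18.2 in sgXIST9. In hypoxia it stood at 12.6, 9.47 and 8.86 CPM in sgCtl, 25.1, 23.2 and 17.9 in sgXIST7, and 26.9, 30.9 and 25.7 in sgXIST9. No sgXIST7 or sgXIST9 library reached down to the sgCtl range at either oxygen level. The log2 fold changes against sgCtl were 1.00 ± 0.16 and 1.08 ± 0.16 in normoxia (edgeR adjusted p = 0.000155 and 7.16e-05) and 1.10 ± 0.16 and 1.43 ± 0.16 in hypoxia (adjusted p = 3.96e-05 and 3.13e-06), for sgXIST7 and sgXIST9 in that order. The sgXIST7 value in normoxia sits at the fold limit: it was under it without the hypoxia libraries of replicate 3 and on leaving out 12 of the 18 single libraries (0.93 to 1.08 over all single omissions), each time with an adjusted p under 0.01. The sgXIST7 value in hypoxia also went just under the limit, to 0.9983, on leaving out replicate 1 of sgXIST7 in hypoxia. Hypoxia gave 0.17 in sgCtl and 0.27 in sgXIST7 (adjusted p = 0.405 and 0.141), and 0.52 ± 0.15 in sgXIST9, which had an adjusted p of 0.00815 but not the fold. The hypoxia values against sgCtl without the hypoxia libraries of replicate 3 were 1.14 in sgXIST7 and 1.40 in sgXIST9, both past the thresholds.

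SMOX, which oxidises spermine back to spermidine with release of hydrogen peroxide, rose in hypoxia whatever the guide. It stood at 2.55, 2.63 and 3.62 CPM in sgCtl in normoxia, 1.69, 1.89 and 1.79 in sgXIST7, and 1.07, 1.33 and 1.11 in sgXIST9. Its hypoxia levels were 10.00, 10.4 and 9.74 CPM in sgCtl, 4.30, 6.52 and 7.85 in sgXIST7, and 4.74, 5.58 and 4.16 in sgXIST9. Every sgXIST7 and sgXIST9 library lay below every sgCtl library of the same oxygen level, and every hypoxia library above every normoxia library. The rise was 3.41-fold in sgCtl (1.77 ± 0.22, edgeR adjusted p = 6.11e-06), 3.46-fold in sgXIST7 (1.79 ± 0.23, adjusted p = 3.85e-06) and 4.12-fold in sgXIST9 (2.04 ± 0.24, adjusted p = 1.88e-06), and 1.79, 1.61 and 2.14 on the log2 scale without the hypoxia libraries of replicate 3, each past the thresholds. The differences in response were 0.02 for sgXIST7 (95% interval -0.59 to 0.63) and 0.27 for sgXIST9 (-0.40 to 0.95), neither of which passed. Against sgCtl, SMOX was 2.51-fold lower in sgXIST9 in normoxia (-1.33 ± 0.24, adjusted p = 0.000635) and 2.08-fold lower in hypoxia (-1.05 ± 0.21, adjusted p = 0.00117). In sgXIST7 it gave -0.72 ± 0.23 and -0.70 ± 0.21 (adjusted p = 0.0345 and 0.0138). The sgXIST9 value in hypoxia was -0.99, under the fold limit, without the hypoxia libraries of replicate 3, and -0.97 without replicate 3 of sgXIST9 in hypoxia alone.

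PAOX, which completes the return from acetylated polyamines, was low, with 9 to 85 counts per library. In normoxia it stood at 2.62, 2.09 and 3.16 CPM in sgCtl, 3.59, 3.61 and 3.70 in sgXIST7, and 2.50, 1.75 and 2.45 in sgXIST9. Levels in hypoxia were 0.687, 0.744 and 2.21 CPM in sgCtl, 1.53, 1.72 and 0.777 in sgXIST7, and 1.05, 1.63 and 1.51 in sgXIST9. Replicate 3 was the highest sgCtl library and the lowest of sgXIST7 in hypoxia. PAOX fell 2.62-fold from normoxia to hypoxia in sgXIST7 (-1.39 ± 0.36, edgeR adjusted p = 0.00332), a call lost on leaving out replicate 3 of sgXIST7 in normoxia or in hypoxia (-1.59 to -1.15). In sgXIST9 the response was -0.68 ± 0.37 (adjusted p = 0.126). In sgCtl it was -1.19 ± 0.39 (adjusted p = 0.0167), and -1.17 by DESeq2, which passed (adjusted p = 0.00782). Without the hypoxia libraries of replicate 3 it was -1.86 in sgCtl and -1.14 in sgXIST7, each past both thresholds, and -0.73 in sgXIST9. Without them PAOX was also higher in sgXIST7 than in sgCtl in hypoxia, at 1.18 against 0.26 with all libraries, and its difference in response for sgXIST7 changed from -0.20 ± 0.53 to 0.72 ± 0.40, neither of which passed.

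**Figure D4:**
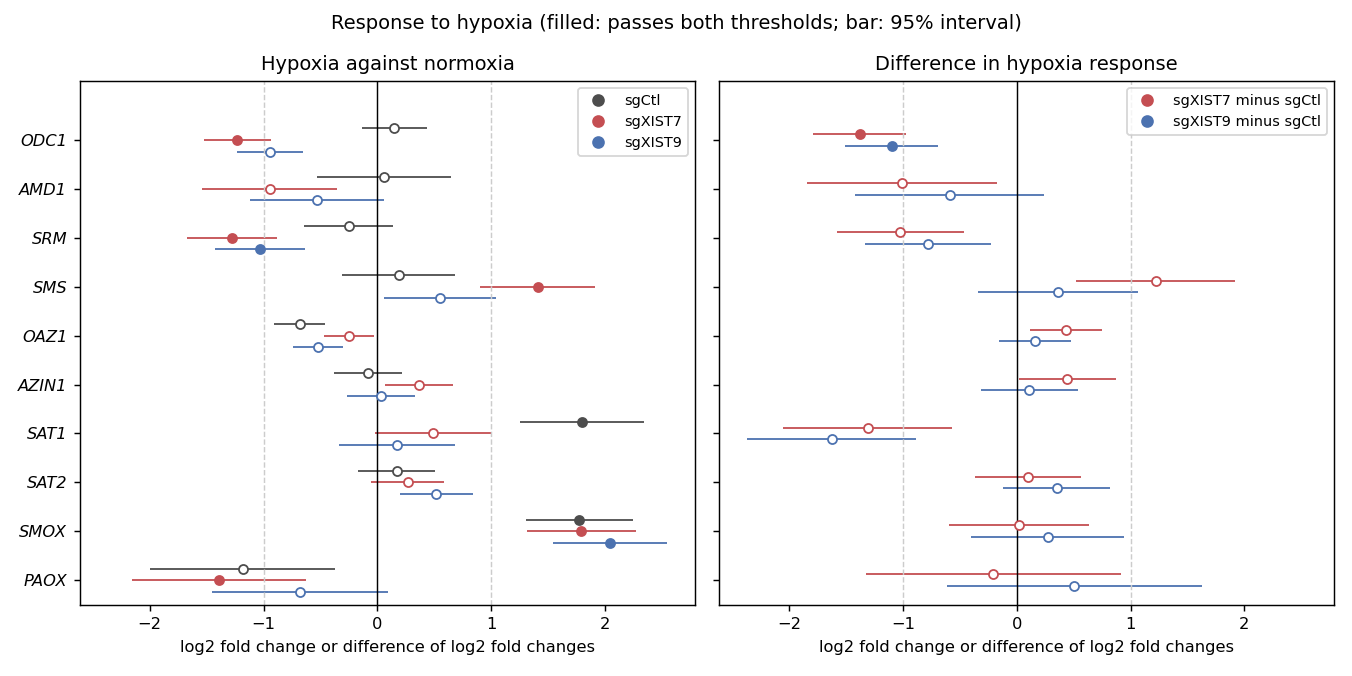
On the left, each point is the log2 fold change of 1 gene from normoxia to hypoxia in sgCtl (grey), sgXIST7 (red) or sgXIST9 (blue); on the right, it is the response in sgXIST7 or sgXIST9 minus that in sgCtl; bars are 95% intervals and filled points pass both thresholds. ODC1 is the gene whose difference passes for both guides by edgeR with all libraries (-1.38 and -1.10), and SMOX rises by 1.77 to 2.04 in all 3.

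By role, none of the 4 synthesis genes passed in normoxia between guides, and in hypoxia ODC1 and AMD1 were lower and SMS higher in sgXIST7, with ODC1 lower in sgXIST9. Of the 4 breakdown genes, SAT1 and SAT2 were higher in both sgXIST7 and sgXIST9 in normoxia, SAT2 in hypoxia too, and SMOX lower in sgXIST9 at both oxygen levels. Without the hypoxia libraries of replicate 3, differences in hypoxia response passed for 5 of the 10 genes in sgXIST7 (ODC1, AMD1, SRM, SMS and SAT1) and for 2 in sgXIST9 (ODC1 and SAT1), against 1 and 1 with all libraries. The share of all genes that passed rose as well, to 8.43% and 5.38%, from 1.52% and 1.01%. By DESeq2 with all libraries 4 passed in sgXIST7 (ODC1, SRM, SMS and SAT1) and 2 in sgXIST9 (ODC1 and SAT1). Of all genes 4% and 2.88% passed there. What sets the hypoxia libraries of replicate 3 apart was not tested.

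**Figure D5:**
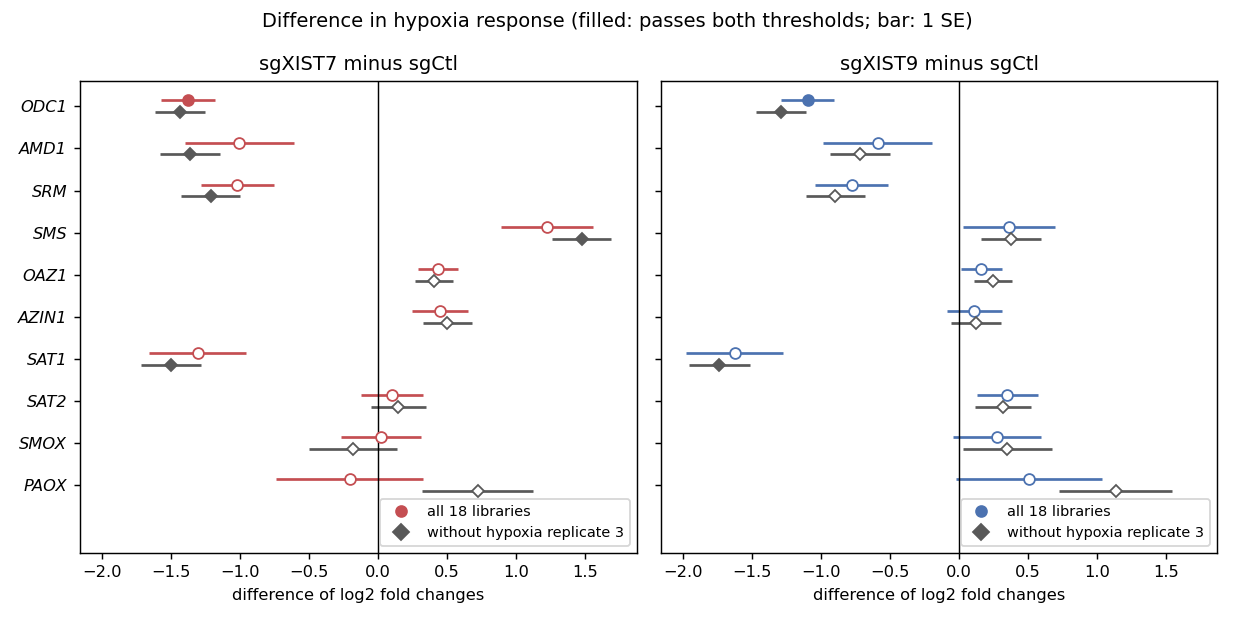
Each row of points is the difference in hypoxia response of 1 gene, sgXIST7 (left) or sgXIST9 (right) minus sgCtl, with all 18 libraries (circles) and without the 3 hypoxia libraries of replicate 3 (grey diamonds), with 1 SE; filled points pass both thresholds. For sgXIST7 the filled diamonds are ODC1, AMD1, SRM, SMS and SAT1, and PAOX crosses 0, from -0.20 to 0.72.

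Between the guides themselves, 0 of the 10 genes passed in normoxia and 0 in hypoxia by edgeR, where 3.4% and 4.46% of all genes passed; DESeq2 also called 0 and 0. An unadjusted p under 0.05 was found for 3 genes in normoxia (OAZ1, AZIN1 and SMOX) and for 4 in hypoxia (SAT2, ODC1, SMS and AMD1), where 21.2% and 32.3% of all genes had one. SMS came nearest, 1.93-fold higher in sgXIST7 in hypoxia (log2 difference 0.95, 95% interval 0.45 to 1.44, edgeR adjusted p = 0.0103), and 1.18 and past both thresholds without the hypoxia libraries of replicate 3. For SAT1 the intervals of the difference were -0.57 to 0.45 in normoxia and -0.25 to 0.77 in hypoxia. For ODC1 in hypoxia the interval was -0.65 to -0.07, on the side of a lower level in sgXIST7.

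Around the core pathway, 28 further genes of polyamine supply and use were examined, of which 25 were tested. In normoxia 1 of the 25 passed in sgXIST7 against sgCtl and 3 in sgXIST9, where 7.76% and 7.7% of all genes did, and in hypoxia 2 and 3, where 14% and 9.53% did, so these counts are of the order of the background. From normoxia to hypoxia 2 of the 25 rose and 1 fell in sgCtl, 2 rose and 0 fell in sgXIST7, and 0 passed in sgXIST9. Of all genes 19.7%, 27.3% and 23.3% passed there, so the hypoxia counts lie below the background. MTAP, which salvages the methylthioadenosine left by SRM and SMS, stood at 105 to 123 CPM in sgCtl in normoxia against 344 to 357 in sgXIST7 and 332 to 340 in sgXIST9. In hypoxia MTAP stood at 69.9 to 94.2 CPM in sgCtl, 357 to 384 in sgXIST7 and 255.5 to 358 in sgXIST9. It was higher in all 4 comparisons with sgCtl, by 1.64 and 1.57 in normoxia and 2.22 and 1.96 in hypoxia on the log2 scale (edgeR adjusted p from 1.94e-09 to 9.79e-08), and by 2.12 and 1.75 in hypoxia without the hypoxia libraries of replicate 3. The other 4 genes of that salvage route passed in none of the 4.

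Among the suppliers of ornithine, ARG2, the mitochondrial arginase, was lower in sgXIST9 in normoxia (25.5 to 29.1 CPM against 69.6 to 72.1 in sgCtl, log2 fold change -1.37 ± 0.12, edgeR adjusted p = 1.67e-07). ALDH18A1, which makes the precursor of ornithine and proline from glutamate, rose in hypoxia in sgCtl (1.27 ± 0.18) and in sgXIST7 (1.66 ± 0.18), and gave 0.95 ± 0.17 in sgXIST9; without the hypoxia libraries of replicate 3 the rises were 1.08 and 1.53, and passed. SLC7A1, an importer of arginine, was higher in sgXIST7 than in sgXIST9 in hypoxia (1.12 ± 0.24, and 1.31 without those libraries), and ARG2 was so in normoxia (1.42 ± 0.12). AZIN2, a second antizyme inhibitor, rose in hypoxia in sgCtl, from 20 to 27 counts to 128 to 172 (2.66 ± 0.66), and in sgXIST7, from 38 to 59 counts to 302 to 1163 (4.30 ± 0.63). AZIN2 was also higher in sgXIST7 than in sgCtl in hypoxia (2.14 ± 0.56), though the ranges of 14.4 to 69.8 and 7.98 to 15.2 CPM overlapped. With the hypoxia libraries of replicate 3 left out, the AZIN2 values were 2.30, 3.88 and 2.07 in that order, and passed.

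MAT1A, the liver form of the S-adenosylmethionine synthetase, had 26 to 49 counts in sgXIST9 in normoxia against 0 to 2 in sgCtl, and 13 to 24 in hypoxia against 0 in each sgCtl library, which allows up to 3 counts in each; both differences passed, as did that from sgXIST7 in hypoxia, which had 0 to 5 counts. With the hypoxia libraries of replicate 3 left out, the last of these did not pass. SATL1, an acetyltransferase like SAT1, was higher in sgXIST9 than in sgCtl in hypoxia, with 19 to 32 counts against 1 to 9, a call lost without the hypoxia libraries of replicate 3 (log2 fold change 1.28 against 1.63). MRI1, of methylthioadenosine salvage, gave much the same response to hypoxia in all 3, -1.01 ± 0.13 in sgCtl, which passed, and -0.83 ± 0.13 in sgXIST7 and -0.86 ± 0.13 in sgXIST9, which had adjusted p under 0.01 but not the fold (edgeR); in sgCtl it was -1.08 without the hypoxia libraries of replicate 3. The 4 hypusination genes include EIF5A and the enzymes that modify it with spermidine. Of these and of the 4 transport genes tested, 0 passed both thresholds in any of the 11 comparisons by edgeR with all libraries. Between 1.01% and 27.3% of all genes passed, depending on the comparison. DOHH, which completes hypusine, passed in sgXIST7 against sgCtl in hypoxia without the hypoxia libraries of replicate 3 (-1.09 against -0.95 with all). There 17.9% of all genes passed. The same omission also gained OAT for hypoxia in sgCtl (1.18 against 0.93 with all). In sgXIST9 against sgCtl in normoxia it gained AZIN2 (2.06) and SATL1 (1.92). Between the guides, sgXIST7 against sgXIST9, it gained MAT1A in normoxia (-2.05) and AZIN2 in hypoxia (2.04). Of all genes 23.4%, 9.24%, 4.61% and 6.34% passed in these comparisons, in that order.

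Across the 18 libraries, the gene whose log2 CPM followed that of SAT1 most closely among 10710 genes with a mean of at least 100 counts was OAT, ornithine aminotransferase, with a Pearson r of 0.92 over 18 libraries, followed by TMEM189 (0.92), ARC (0.91), ANGPTL2 (0.91) and MAFA (0.90). OAT stood at 107 to 131 CPM in sgCtl in normoxia, 143 to 206 in sgXIST7 and 184 to 203 in sgXIST9, and at 143 to 276 in hypoxia over all groups. For ODC1 the closest were PACC1 (0.94), KIFBP (0.94), CPSF4 (0.94), CIAO1 (0.93) and SUV39H2 (0.93). PACC1, a proton-activated chloride channel, stood at a mean of 19.7 CPM in sgCtl in hypoxia against 9.81 in sgXIST7 and 11.3 in sgXIST9. These likenesses are descriptions: the libraries of a group share clone, oxygen level and depth, and a gene that differs between the same groups will correlate.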

How the data were processed

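Libraries were rRNA-depleted, stranded total RNA, read from both ends. The authors used Trimmomatic for trimming, HISAT2 for alignment (hg38) and featureCounts for counting; the deposited values are raw counts per gene, with exon coordinates and lengths. Versions, strand setting and treatment of multiply aligned reads are not given in the sources used here. Of 28279 lines, 2 were broken records and were left out. Groups came from the sample titles. In R 4.3.3, edgeR 4.0.16 (limma 3.58.1) kept genes by filterByExpr (minimum count 10, minimum total 15; 14938 genes), scaled by TMM and fitted 6 groups by quasi-likelihood (robust), with Benjamini-Hochberg adjustment over all genes tested; the study used DESeq2 (here 1.42.0, an alternative) with the same thresholds (adjusted p 0.01, log2 fold change 1 in either direction). CPM and RPKM use TMM-scaled totals; 95% intervals come from the fit and cover the spread between these libraries, which the study calls biological replicates. All 10 members were to be named, further genes where called in any comparison, and the 5 genes most like SAT1 and ODC1. The members and lists were chosen with earlier results of these data known. Replicates differed far beyond sampling noise, so none was a repeated deposit. Replicate numbers are shared between groups: every same-numbered pair correlated above 0.1 for sgXIST7 against sgCtl in normoxia (0.33 to 0.61), sgXIST9 against sgCtl in hypoxia (0.36 to 0.64) and hypoxia in sgCtl (0.10 to 0.21), which was taken as pairing there. The main fit has no replicate term and so does not use this pairing. The replicate block, an alternative, fits the same replicate effect at both oxygen levels. Between oxygen levels replicate 3 correlated at 0.14 in sgCtl, -0.04 in sgXIST7 and 0.03 in sgXIST9. Whatever the hypoxia libraries of replicate 3 share, the block may therefore not capture. The fit was tested on simulated data. Promoter windows are RefSeq's on GRCh38.p14.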

Additional observations from a re-analysis of the deposited data

Results flagged for a closer look

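The hypoxia response of ODC1 differed between guides by a test of the difference itself. The genes were chosen with these fold changes known, so the result describes ODC1 and is no independent evidence. The log2 response in sgXIST7 minus that in sgCtl was -1.38 (edgeR adjusted p = 0.000687, 95% interval -1.79 to -0.97), and in sgXIST9 minus sgCtl it was -1.10 (adjusted p = 0.00444, 95% interval -1.50 to -0.69). Each of the 3 libraries of sgXIST7 and of sgXIST9 in hypoxia lay below every library of the same guide in normoxia, while the sgCtl groups overlapped. Of all genes tested, 63.9% in sgXIST7, 65.9% in sgXIST9 and 54.9% in sgCtl did not overlap between oxygen levels. Both differences share the sgCtl libraries, so they are not independent of each other. The sgXIST9 difference did not pass when any 1 of 9 single libraries was left out. ODC1 was not alone under other settings. The SAT1 differences, -1.31 in sgXIST7 and -1.63 in sgXIST9, did not pass by edgeR with all libraries. By DESeq2 both passed (-1.31 and -1.68, adjusted p = 0.00496 and 0.000202).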

How the results depend on the processing

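Of the 23 calls among the 10 genes, all 23 were kept with DESeq2, with DESeq2's size factors in edgeR, with a filter on mean CPM and with the replicate block, 21 with upper-quartile scaling, 21 without a filter on low counts, 21 with only the groups compared in the fit, and 20 without the hypoxia libraries of replicate 3. No called value changed sign under any alternative run. The count of genes past both thresholds in sgXIST7 against sgCtl in normoxia was 1 with upper-quartile scaling, 1 without the filter and 1 without the hypoxia libraries of replicate 3 (7.65%, 5.05% and 9.07% of all genes, against 7.76%). The count for hypoxia in sgXIST9 was 1 with upper-quartile scaling and 5 with no fold limit (23.7% and 42.1% of all genes, against 23.3%). The count for the difference in response in sgXIST7 was 4 at an adjusted p under 0.05, 4 with DESeq2, 5 without the hypoxia libraries of replicate 3 and 2 with the replicate block, which added SMS; the block changed no other call. The share of all genes past the same thresholds was 4.73%, 4%, 8.43% and 2.48% in that order, against 1.52%. The count for the difference in sgXIST9 was 2 at an adjusted p under 0.05, 2 without the filter, 2 with DESeq2 and 2 without the hypoxia libraries of replicate 3, where 3.13%, 0.844%, 2.88% and 5.38% of all genes passed, against 1.01%. That for sgXIST7 against sgXIST9 in hypoxia was 1 without them (6.34% of all genes, against 4.46%). Leaving out 1 library at a time, the counts ran from 0 to 2 (sgXIST7 against sgCtl in normoxia), 2 to 3 (sgXIST9 in normoxia), 2 to 4 (sgXIST7 in hypoxia), 2 to 3 (sgXIST9 in hypoxia), 2 to 3 (hypoxia in sgCtl), 4 to 6 (in sgXIST7) and 1 to 2 (in sgXIST9), from 1 to 5 and 0 to 2 for the differences in response of sgXIST7 and sgXIST9, and from 0 to 0 and 0 to 1 between the guides in normoxia and hypoxia. The shares of all genes for these single omissions are not given, so the ranges have no background beside them. With upper-quartile scaling the genes called for the sgXIST9 difference were 131 higher and 42 lower, against 99 and 52. The cause of these changes was not tested. SMOX, PAOX and SAT1 have the fewest counts, and 3 libraries a group limit the precision of every value.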
